A study of Homo sapiens with 6 samples.

Results

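The desmosome genes examined here were 10 genes chosen by name: the desmosomal cadherins DSG2, DSC2 and DSC3, the armadillo proteins JUP, PKP1, PKP2 and PKP3, and the plakins DSP, PPL and EVPL. All 10 were among the 33451 genes of the count table, and 9 of them were among the 18183 genes that passed the low-count filter and were tested. MDA-MB-453, an established human breast cancer cell line, was cultured for 5 days either with 100 nM 25(OH)D, the main circulating form of vitamin D, or with its solvent, 0.1% alcohol. Each group, called the 25(OH)D group and the control group here, gave 3 mRNA libraries from this single line, described as biological replicates, and the sample labels do not say whether the cultures were separate, so p-values measure the spread between these libraries. The comparison addressed which desmosome transcripts differed in level after culture with 25(OH)D.

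Desmosomes are spot-like junctions that fasten neighbouring epithelial cells to each other and anchor their keratin filaments. Desmogleins (DSG) and desmocollins (DSC) are calcium-dependent adhesion proteins whose outer parts meet between cells, the armadillo proteins plakoglobin (JUP) and plakophilins (PKP) bind their inner tails, and desmoplakin (DSP) ties this plaque to keratin. Envoplakin (EVPL) and periplakin (PPL) are relatives of desmoplakin that bind each other, associate with desmosomes and keratin, and are best known as parts of the cornified envelope of squamous epithelium.

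Of the 9 tested genes, 5 were lower in the 25(OH)D group (DSP, DSG2, DSC2, JUP and PKP1), 1 was higher (PPL), and 3 did not pass the test (PKP2, PKP3 and EVPL). A gene was called at a Benjamini-Hochberg adjusted p under 0.05 over all tested genes in the quasi-likelihood test of edgeR. At that threshold, 16.5% of all tested genes were lower and 17.3% were higher. DSC3 was too low to test, and PKP1 and PKP2 passed the filter through their control libraries. Without those 2 genes, of the other 7, which had at least 494 counts in each library, 4 were lower, 1 was higher and 2 did not pass the test. The median log2 fold change was -0.21 over those 7 genes, -0.46 over the 9 with PKP1 and PKP2, and -0.011 over all tested genes. In CPM (counts scaled to a common library size with the TMM factors of edgeR) the groups did not overlap for 6 of the 9 genes, as for 45.7% of all tested genes. Without PKP1 and PKP2 they did not overlap for 5 of the other 7. An absolute log2 fold change over 1 with an unadjusted p under 0.05 was reached by 2 of the 9, DSP and PKP1, both lower, and 2.63% of all tested genes were lower at those limits. Without PKP1 and PKP2 it was reached by 1 of the other 7, DSP.

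The library totals were between 33268860 and 40928176 counts, and 3 counts were worth between 0.0720 and 0.0921 CPM. No library repeated another: the chi-square per gene between replicates was 3.97 to 12.1. It would be near 1 for sampling noise alone if counts were independent, and higher if both reads of a pair were counted. All 12 luminal epithelial markers passed the filter, 7 being higher and 4 lower in the 25(OH)D group, and their summed level was between 12810 and 13180 CPM in control libraries and between 10860 and 11090 CPM in 25(OH)D libraries. XBP1 alone went from between 7806 and 8070 CPM to between 5311 and 5505 CPM, and the other 11 markers summed to between 4962 and 5109 CPM in control and between 5551 and 5597 CPM in 25(OH)D libraries. None of the 6 leukocyte markers and none of the 3 listed endothelial markers passed the low-count filter, and their highest sums in any library were 0.624 CPM and 0.489 CPM, respectively. Of 6 listed fibroblast markers only COL1A1 was tested, and it was lower (summed level of the list between 36.6 and 39.3 CPM in control and between 32.3 and 34.7 CPM in 25(OH)D libraries). Of 8 basal markers 4 were tested and 1, TP63, was lower, with sums between 6.29 and 7.63 CPM in control and between 5.72 and 6.94 CPM in 25(OH)D libraries. TP63 had 12, 26 and 19 counts in control and 3, 2 and 2 with 25(OH)D, and it passed the filter through its control libraries. Of 8 listed squamous markers 2 were tested and 1, KRT4, was higher, with sums between 8.88 and 14.1 CPM in control and between 11.2 and 16.7 CPM in 25(OH)D libraries. Beside these marker counts stand the shares over all tested genes, 17.3% higher and 16.5% lower. The part of these markers in the results was not tested. In cultures measured in bulk, fewer cells of a kind and less RNA per cell cannot be told apart.

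Promoter sequence of 6 members was read from RefSeq (GRCh38.p14) as the 250 bases before each start site, 8 windows in all, and was searched on both strands for 4 motifs. They were the E-box CAGGTG, which reads as CACCTG on the opposite strand, the grainyhead site AACCGGTT, the nuclear receptor half-site AGGTCA, whose opposite strand reads TGACCT, and the box named TATA, spelled TATAAA, whose opposite strand reads TTTATA. The E-box, whose letters are bound by the repressors of the SNAI and ZEB families, lay in 4 of the 8 windows, from 4 different genes, and in 17.5% of 35116 RefSeq windows of the same length. Those 4 windows are shown because they hold the E-box, and they were thus selected on the motif. They come from DSP, DSG2, DSC2 and JUP, and the other start site of DSC2 and that of JUP had no E-box. Capitals mark the motifs, and each sequence runs 5′ to 3′ towards the start site.
DSP, GRCh38.p14 chr6:7541421-7541670, plus strand: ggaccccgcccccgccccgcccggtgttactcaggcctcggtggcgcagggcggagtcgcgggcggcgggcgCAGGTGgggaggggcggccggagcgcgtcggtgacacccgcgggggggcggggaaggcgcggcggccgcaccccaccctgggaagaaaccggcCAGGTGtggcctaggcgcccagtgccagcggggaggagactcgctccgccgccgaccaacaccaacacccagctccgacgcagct
DSG2, GRCh38.p14 chr18:31497927-31498176, plus strand: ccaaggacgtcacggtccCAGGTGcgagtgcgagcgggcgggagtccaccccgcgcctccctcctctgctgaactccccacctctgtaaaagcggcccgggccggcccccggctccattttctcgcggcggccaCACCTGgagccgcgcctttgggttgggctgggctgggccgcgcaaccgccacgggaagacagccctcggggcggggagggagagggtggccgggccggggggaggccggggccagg
DSC2, first start, GRCh38.p14 chr18:31102422-31102671, minus strand: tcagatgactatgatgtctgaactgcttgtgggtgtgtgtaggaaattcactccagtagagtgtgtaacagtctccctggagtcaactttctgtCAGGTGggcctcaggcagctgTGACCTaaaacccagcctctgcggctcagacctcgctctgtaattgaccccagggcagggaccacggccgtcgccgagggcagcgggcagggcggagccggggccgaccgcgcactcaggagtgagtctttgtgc
JUP, second start, GRCh38.p14 chr17:41785977-41786226, minus strand: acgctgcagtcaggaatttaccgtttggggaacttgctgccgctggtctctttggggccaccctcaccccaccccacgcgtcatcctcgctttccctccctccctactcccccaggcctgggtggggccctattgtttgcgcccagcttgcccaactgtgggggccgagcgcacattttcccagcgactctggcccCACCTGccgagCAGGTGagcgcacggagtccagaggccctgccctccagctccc

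In the DSP window the E-boxes began 178 and 85 bases before the start, and in the DSG2 window 232 and 116 bases before it. The DSC2 window held a single E-box, 156 bases before the start, followed by a nuclear receptor half-site at 135 bases. The pair in the JUP window stood close together, at 54 and 43 bases before the start. Starts here are those of RefSeq. In the count table DSP and DSG2 begin earlier, at 7541575 and 31498043, inside their windows, and JUP spans the whole window shown. GC content was 78.0% in the DSP window, 75.2% in the DSG2 window, 59.6% in the DSC2 window and 66.0% in the JUP window, against a median of 58.0% over all windows. The windows of DSC3 and PKP1 held no E-box either. No member window held the grainyhead site, which was in 0.117% of all windows, or the TATA box, which was in 10.7%, and the half-site was in 12.1% of all windows. PKP2, PKP3, PPL and EVPL had no entry. These are matches of letters and were not tested as binding sites.

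The levels of the 10 genes spanned a wide range, and they are given as RPKM, counts scaled to exon length and to the library total, which allows genes of different length to be set side by side. In the control group EVPL was the most abundant at 66.5 ± 3.02 RPKM (SD, n = 3), followed by PPL at 18.1 ± 0.869 RPKM. JUP at 9.55 ± 0.335 RPKM and PKP3 at 9.51 ± 0.498 RPKM overlapped, and DSG2 (7.87 ± 0.467 RPKM), DSP (3.84 ± 0.131 RPKM) and DSC2 (2.41 ± 0.0593 RPKM) followed without overlap. PKP1, PKP2 and DSC3 were each below 0.23 RPKM in every library. In the 25(OH)D group DSC2 (1.68 ± 0.0759 RPKM) stood above DSP (1.43 ± 0.0382 RPKM) without overlap, the reverse of their order in control. PKP3 (8.72 ± 0.109 RPKM) stood above JUP (8.01 ± 0.233 RPKM) without overlap, a pair that overlapped in control. At the low end, PKP2, PKP1 and DSC3 overlapped in the 25(OH)D group, while in control only PKP1 and PKP2 did.

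**Figure D1:**
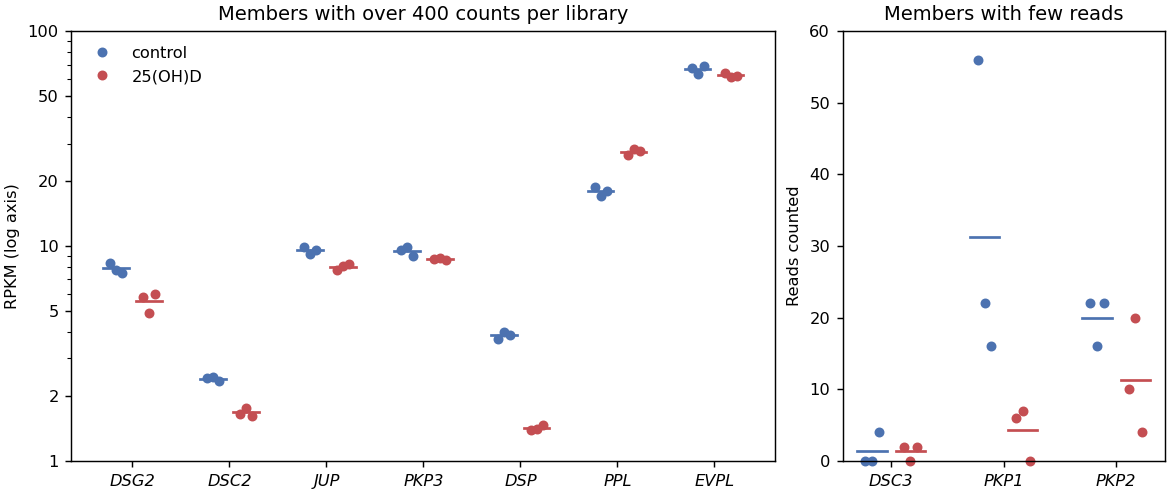
RPKM on a log axis for the 7 well-expressed desmosome genes, and reads counted for the 3 genes with few reads, in the 3 control and 3 25(OH)D libraries (points, with the group mean as a line). DSG2, DSC2, JUP and DSP sit lower in every 25(OH)D library than in any control library, PPL sits higher in every 25(OH)D library, and EVPL overlaps. PKP3 also sits lower in RPKM in every 25(OH)D library, but its CPM values overlap and it did not pass the test.

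Both well-expressed cadherins fell in the 25(OH)D group. DSG2, desmoglein-2, the desmoglein of simple epithelia (GRCh38 chromosome 18, 31498043 to 31549008, plus strand), had 2123, 1791 and 1685 counts in control and 1281, 1176 and 1227 with 25(OH)D. These correspond to 8.38, 7.78 and 7.46 RPKM in control and 5.78, 4.90 and 5.96 RPKM with 25(OH)D. Each 25(OH)D library lay below each control library, and the second 25(OH)D library was the lowest. The log2 fold change of DSG2 was -0.46 (SE 0.0767, edgeR adjusted p = 2.87e-04). An antisense gene on the other strand, DSG2-AS1, shares 171 of the 6190 exon bases of DSG2 and had 352, 350 and 316 counts in control and 219, 197 and 247 counts with 25(OH)D. Whether the counting used the strand is not given in the sources used here, so reads over those shared bases may belong to either gene.

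DSC2, desmocollin-2, the desmocollin found in nearly all desmosome-bearing tissues (chromosome 18, 31058840 to 31102415, minus strand), had 1237, 1127 and 1058 counts in control and 737, 847 and 666 with 25(OH)D. In RPKM these were 2.44, 2.45 and 2.34 against 1.66, 1.77 and 1.62, and the groups did not overlap. Its log2 fold change was -0.48 (SE 0.0648, edgeR adjusted p = 5.01e-05), close in size to that of DSG2. The ratio of DSG2 to DSC2 RPKM within a library was 3.26 ± 0.145 in control and 3.31 ± 0.475 with 25(OH)D (SD, n = 3, two-sided exact permutation p = 0.9). DSC3, desmocollin-3, a basal-layer form of stratified epithelium, had 0, 0 and 4 counts in control and 2, 0 and 2 with 25(OH)D, and no change could be measured at this depth. The desmosomal cadherins lie side by side on chromosome 18, and the genes between DSC2 and DSG2, among them DSC1, DSG1 and DSG3, had at most 2 counts in any library. Summed over the 3 cadherins, the level was 10.3 ± 0.504 RPKM in control and 7.23 ± 0.495 RPKM with 25(OH)D.

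Among the armadillo proteins the well-expressed JUP fell slightly, PKP1 fell from a very low level, and PKP2 and PKP3 did not pass the test. JUP, plakoglobin, which is shared by desmosomes and adherens junctions (chromosome 17, 41754604 to 41786931, minus strand), had 1995, 1690 and 1729 counts in control and 1373, 1545 and 1350 with 25(OH)D. In RPKM these were 9.86, 9.20 and 9.59 against 7.75, 8.06 and 8.21, so every 25(OH)D library was lower than every control library. The log2 fold change of JUP was -0.21 (SE 0.0561, edgeR adjusted p = 0.00959), the smallest among the called members. With 1 library left out at a time, its edgeR adjusted p was between 0.0137 and 0.0499, the highest of these without the first 25(OH)D library.

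PKP3, plakophilin-3, the plakophilin of most simple and stratified epithelia (chromosome 11, 392614 to 404908, plus strand), had 1493, 1400 and 1239 counts in control and 1187, 1293 and 1083 with 25(OH)D. The RPKM values were 9.63, 9.94 and 8.97 in control and 8.75, 8.81 and 8.60 with 25(OH)D, which do not overlap, whereas the CPM values scaled by the TMM factors do overlap. Its log2 fold change of -0.082 (SE 0.0600, 95% interval -0.20 to 0.035) did not pass the test (edgeR adjusted p = 0.327). The ratio of PKP3 to JUP RPKM was 0.998 ± 0.0752 in control and 1.09 ± 0.0407 with 25(OH)D (SD, n = 3), and the groups overlapped (two-sided exact permutation p = 0.2).

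PKP1, plakophilin-1, a plakophilin of stratified epithelium (chromosome 1, 201283452 to 201332993, plus strand), had 56, 22 and 16 counts in control and 6, 7 and 0 with 25(OH)D. The first control library held most of the control counts, and no 25(OH)D library reached the lowest control library. The log2 fold change was -2.68 (SE 0.670, edgeR adjusted p = 0.00638), and it rests on 94 counts in control and 13 with 25(OH)D. Without the first control library it was -2.03 and the edgeR adjusted p was 0.0535, and in limma on log2(RPKM + 1), a scale that compresses low genes, it was -0.15 with an adjusted p of 0.0855. PKP2, plakophilin-2, the main plakophilin of heart muscle and also present in simple epithelia (chromosome 12, 32790745 to 32896840, minus strand), had 22, 16 and 22 counts in control and 10, 20 and 4 with 25(OH)D. The groups overlapped, and its log2 fold change of -0.71 (SE 0.489, 95% interval -1.66 to 0.25) did not pass the test (edgeR adjusted p = 0.300). Summed over the 4 armadillo proteins, the level was 19.3 ± 0.541 RPKM in control and 16.8 ± 0.205 RPKM with 25(OH)D.

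The 3 plakins moved in different directions. DSP, desmoplakin, the link from the desmosomal plaque to keratin (chromosome 6, 7541575 to 7586717, plus strand), had 1534, 1492 and 1414 counts in control and 506, 553 and 494 with 25(OH)D. In RPKM these were 3.71, 3.98 and 3.84 against 1.40, 1.41 and 1.47, and both groups were tight around their means. The log2 fold change of DSP was -1.38 (SE 0.0660, edgeR adjusted p = 8.27e-10), a 2.61-fold lower level, and it was the only member of those 7 to pass the limit of 1 on the log2 scale. Over 15 alternative settings its log2 fold change was between -1.43 and -0.996, and the value nearest to 0 came from limma on log2(RPKM + 1).

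PPL, periplakin (chromosome 16, 4882507 to 4960741, minus strand), was the only member to rise. Its counts were 5951, 4910 and 5072 in control and 7336, 8425 and 7096 with 25(OH)D, or 18.9, 17.2 and 18.1 RPKM against 26.6, 28.3 and 27.8 RPKM. Every 25(OH)D library was higher than every control library. The log2 fold change was 0.65 (SE 0.0445, edgeR adjusted p = 4.22e-08), a 1.57-fold higher level, and it was between 0.58 and 0.69 over the 15 alternatives. EVPL, envoplakin, the partner of periplakin (chromosome 17, 76004502 to 76027452, minus strand), had 20742, 17628 and 18886 counts in control and 17127, 17879 and 15514 with 25(OH)D. The RPKM values were 67.5, 63.1 and 68.9 in control and 63.6, 61.4 and 62.1 with 25(OH)D, so the groups overlapped. Its log2 fold change of -0.049 (SE 0.0406, 95% interval -0.13 to 0.031) did not pass the test (edgeR adjusted p = 0.398), and that interval lies below the 95% interval of PPL, 0.57 to 0.74.

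**Figure D2:**
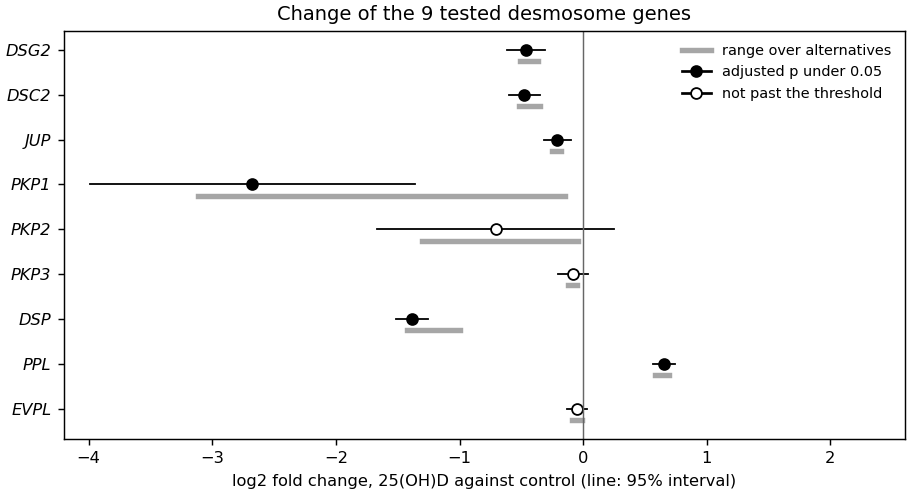
Log2 fold change of 25(OH)D against control for the 9 tested desmosome genes, with the 95% interval as a thin line and the range over the alternative settings as a grey bar. The filled points are called at an adjusted p under 0.05: PPL lies above 0, while DSG2, DSC2, JUP, PKP1 and DSP lie below it, and PKP1 has the widest error.

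The balance among the plakins therefore differed between the groups. PPL RPKM was 5.09, 4.32 and 4.71 times that of DSP in control and 19.04, 20.01 and 18.86 times that of DSP with 25(OH)D. The means were 4.71 ± 0.386 and 19.3 ± 0.616 (SD, n = 3), the groups did not overlap, and the two-sided exact permutation p was 0.1, the smallest that 3 libraries against 3 allow. The ratio of EVPL to PPL went the other way, from 3.68 ± 0.122 in control to 2.27 ± 0.112 with 25(OH)D (exact permutation p = 0.1). Relative to DSP, JUP, PKP3 and DSG2 also stood higher with 25(OH)D, and no ratio was computed for the low PKP1 and PKP2. JUP and DSG2 were themselves lower and PKP3 did not pass the test. All ratios over DSP share its fall, and that of EVPL to PPL shares the rise of PPL, so they are not separate results. The ratio of JUP to DSP was 2.49 ± 0.172 in control and 5.61 ± 0.0857 with 25(OH)D, that of PKP3 to DSP was 2.48 ± 0.131 and 6.11 ± 0.231, and that of DSG2 to DSP was 2.05 ± 0.177 and 3.88 ± 0.361 (exact permutation p = 0.1 for each). The ratio of EVPL to DSP was 17.3 ± 1.26 and 43.7 ± 1.66 (exact permutation p = 0.1). In all, 8 ratios were computed, and after Benjamini-Hochberg adjustment of the exact permutation p over them the 6 ratios without overlap had p = 0.133, that of PKP3 to JUP 0.229 and that of DSG2 to DSC2 0.9.

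The sum over all 10 genes was 118 ± 3.67 RPKM in control and 115.4 ± 0.563 RPKM with 25(OH)D, a sum in which EVPL and PPL weigh most. Without EVPL and PPL the other 8 genes summed to 33.4 ± 0.982 RPKM in control and 25.5 ± 0.415 RPKM with 25(OH)D. The plakins made up 74.9% ± 1.05 of the sum over all 10 genes in control and 79.2% ± 0.250 with 25(OH)D. PPL alone went from 15.3% ± 0.317 to 23.9% ± 0.814, and the cadherins from 8.73% ± 0.434 to 6.27% ± 0.3998 (SD, n = 3). These shares are a description and were not tested.

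**Figure D3:**
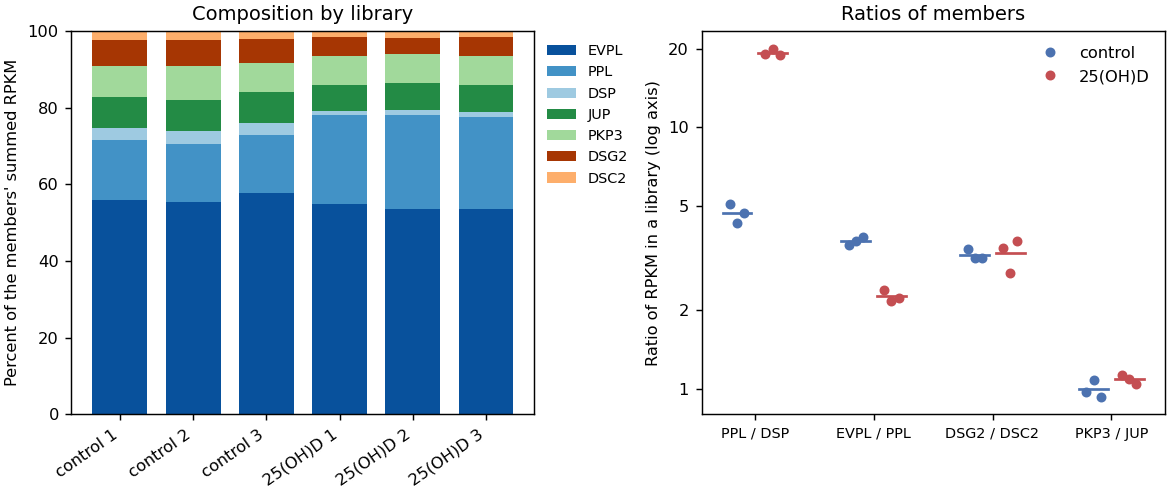
Left, each gene's percent of the summed RPKM of the 10 desmosome genes in every library (DSC3, PKP1 and PKP2 are too low to see). Right, ratios of RPKM within a library on a log axis, with points for libraries and lines for group means: PPL to DSP is near 4.71 in control and near 19.3 with 25(OH)D, and DSG2 to DSC2 overlaps.

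Of 7 other known desmosomal genes, 6 were in the table, 3 were tested, none was higher and 1 was lower, with a median log2 fold change of -0.061 against -0.011 over all tested genes. Over all tested genes 17.3% were higher and 16.5% were lower, and the counts of this list and of each list below stand beside those shares. PKP4, a plakophilin relative found at several junctions, had 5408, 4921 and 4632 counts in control and 3658, 4034 and 3183 with 25(OH)D, and its log2 fold change was -0.33 (SE 0.0442, edgeR adjusted p = 4.17e-05). PERP, a tetraspan membrane protein of desmosomes, was at 42.0 ± 3.32 CPM and 45.6 ± 1.34 CPM (log2 fold change 0.12, edgeR adjusted p = 0.179), and without the first control library it passed the test at 0.19 (edgeR adjusted p = 0.0409). CDSN, corneodesmosin, was at 3.43 ± 0.554 CPM and 3.28 ± 0.247 CPM (log2 fold change -0.061, edgeR adjusted p = 0.819). DSG1, DSG3 and DSC1, the cadherins of stratified epithelium, had at most 2 counts in any library, and DSG4 was not listed.

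Keratins, the filaments that DSP anchors, were mixed. Of 17 genes, 16 keratins and vimentin, 11 were tested, 6 were higher and 2 were lower, with a median log2 fold change of 0.14. KRT7, a keratin of simple epithelium, rose from 495.5 ± 12.2 CPM to 912 ± 14.4 CPM (log2 fold change 0.88, edgeR adjusted p = 8.89e-11). KRT16, a stress keratin of stratified epithelium, had 14, 14 and 20 counts in control and 100, 118 and 110 with 25(OH)D. KRT19, another simple keratin, fell from 790.5 ± 26.1 CPM to 596 ± 15.2 CPM (log2 fold change -0.41, edgeR adjusted p = 7.57e-07), and KRT23 had 20, 24 and 16 counts in control and 2, 2 and 0 with 25(OH)D. KRT23 passed the low-count filter through its control libraries. KRT81, called higher, had 11, 16 and 21 counts in control and 67, 83 and 81 with 25(OH)D. It passed that filter through its 25(OH)D libraries. With a filter of at least 1 CPM in 3 libraries, 1 gene of this list was lower. Keratins share sequence with each other and with pseudogenes, so reads may be split among them. KRT8 and KRT18, the main pair of simple epithelium, were also among those called higher, with log2 fold changes of 0.14 and 0.10, and the call of KRT18 was lost with upper-quartile factors (0.062, edgeR adjusted p = 0.206), with library sizes alone, in limma on RPKM, and without the second control library or either the first or second 25(OH)D library.

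In the list of other plakins and cornified envelope genes, 7 of 14 listed genes were tested, 2 were higher and 3 were lower, with a median log2 fold change of -0.20. PLEC, plectin, which links keratin to hemidesmosomes, rose from 1208 ± 49.9 CPM to 1664 ± 41.0 CPM (log2 fold change 0.46, edgeR adjusted p = 2.19e-07), and KAZN, a periplakin-binding protein, rose by 0.82 on the log2 scale (edgeR adjusted p = 0.00103). DST, dystonin, fell by 0.85 (edgeR adjusted p = 5.11e-09) and MACF1 by 0.30 (edgeR adjusted p = 6.25e-04) on the log2 scale. EPPK1, epiplakin, was the remaining lower gene, and its call was lost in limma on RPKM and without the first control library (-0.19, edgeR adjusted p = 0.0636) or the first 25(OH)D library (-0.17, edgeR adjusted p = 0.0797). The transglutaminase TGM1 was tested and not called, and the listed TGM3, TGM5, IVL, SPRR1B, SPRR2A, SPRR3 and SCEL had too few counts to be tested.

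The adherens junction, the other cadherin-based junction of epithelial cells, had 14 of 15 genes tested, of which 7 were higher and 2 lower, with a median log2 fold change of 0.085. Its catenins CTNNA1 and CTNND1 rose by 0.32 (SE 0.0342, edgeR adjusted p = 4.26e-06) and 0.26 (SE 0.0354, edgeR adjusted p = 4.24e-05) on the log2 scale. CDH1, CTNNB1, NECTIN2, NECTIN4 and MLLT4, which encodes afadin, were also called higher, and the call of NECTIN2 was lost with library sizes alone (0.15, edgeR adjusted p = 0.0605), in limma on RPKM, and without the second control library, the third control library or the first 25(OH)D library. CDH2, N-cadherin, fell by 1.50 on the log2 scale, from 355, 349 and 296 counts in control to 99, 121 and 102 with 25(OH)D (edgeR adjusted p = 3.74e-07), and PARD3, a polarity protein, fell by 0.52 (edgeR adjusted p = 6.90e-06). With upper-quartile factors or with library sizes alone, 4 genes of this list were lower.

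The hemidesmosome, which fastens epithelial cells to the basement membrane, had 4 of 6 genes tested, 1 of them higher and 2 lower, with a median of -0.26. The tetraspanin CD151 rose by 0.51 on the log2 scale (edgeR adjusted p = 4.09e-06). The laminin chain LAMB3 was at 3.82 ± 0.106 CPM in control and 3.83 ± 0.740 CPM with 25(OH)D and did not pass the test (log2 fold change 0.0011, edgeR adjusted p = 0.997). Both chains of the hemidesmosomal integrin fell, ITGA6 by 0.53 (edgeR adjusted p = 6.46e-05) and ITGB4 by 0.53 (edgeR adjusted p = 9.79e-05) on the log2 scale.

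Of 15 listed transcription factors that act on junction genes, 11 were tested, 6 were higher and 4 lower, with a median of 0.13. The number higher was 3 with upper-quartile factors, with library sizes alone, in limma on RPKM, without the third control library and without the second 25(OH)D library. The epithelial ETS factors EHF (log2 fold change 0.35, edgeR adjusted p = 3.56e-06) and ELF3 (0.53, edgeR adjusted p = 3.83e-06) rose. KLF4 fell by 1.15 (edgeR adjusted p = 2.65e-06) and the grainyhead-like factor GRHL3 by 0.91 (edgeR adjusted p = 4.91e-06) on the log2 scale. TP63, also called lower, passed the filter through its control libraries. With a filter of at least 1 CPM in 3 libraries or in limma on log2(RPKM + 1), 3 factors of this list were lower. Of the factors that bind the E-box named above, ZEB1 was called higher, with 65, 64 and 66 counts in control and 117, 151 and 124 with 25(OH)D. SNAI1, SNAI2 and ZEB2 did not pass the low-count filter. SNAI1 had 2, 2 and 0 counts in control and SNAI2 had 6, 4 and 4, and both had 0 in every 25(OH)D library. ZEB2 had 16, 6 and 2 counts in control and 0, 2 and 3 with 25(OH)D.

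All 13 genes of a list of proteases, kinases, calcium pumps and other proteins that act on desmosomes passed the filter. Of these, 2 were higher and 2 lower, with a median of 0.048, while 17.3% of all tested genes were higher and 16.5% lower. The metalloproteases ADAM10, which sheds desmosomal cadherins, and ADAM15 rose by 0.27 (edgeR adjusted p = 1.38e-04) and 0.30 (edgeR adjusted p = 2.28e-04) on the log2 scale. The small GTPase RHOA and the kinase GSK3B fell by 0.20 (edgeR adjusted p = 7.15e-04) and 0.21 (edgeR adjusted p = 0.00281). The remaining 9 genes, among them EGFR, SRC, ADAM17 and the calcium pumps ATP2C1 and ATP2A2, did not pass the test.

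**Figure D4:**
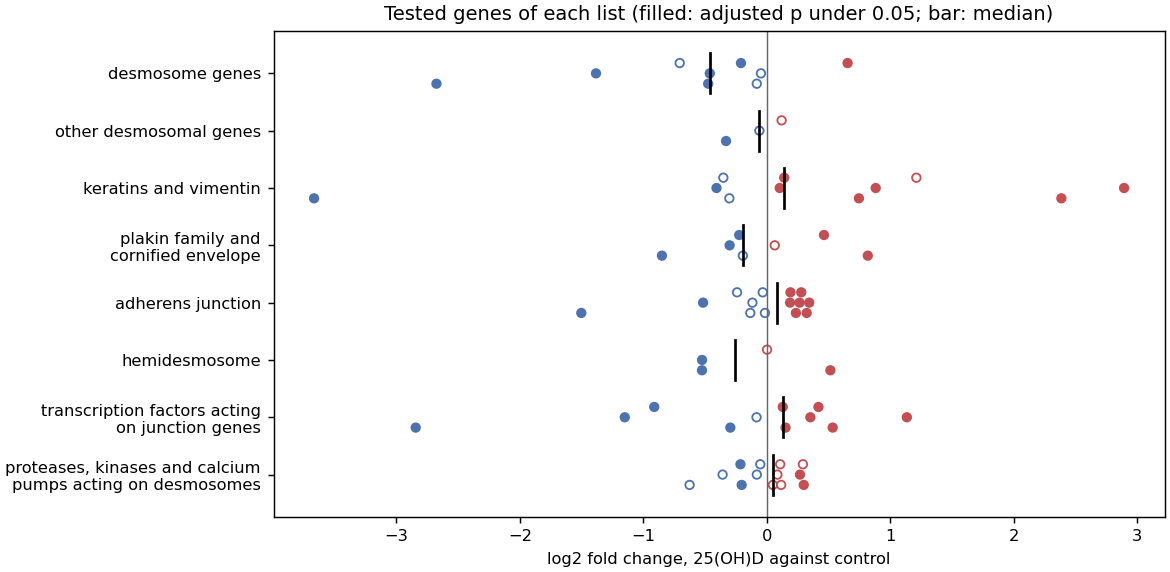
Log2 fold change of 25(OH)D against control for the tested genes of the desmosome set and of 7 lists, with points filled where the adjusted p is under 0.05 and a bar at the list median. The median of the desmosome set is at -0.46 with PKP1 and PKP2, which passed the filter through their control libraries, and at -0.21 without them, and the medians of the other lists lie between -0.26 and 0.14.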

How the data were processed

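MDA-MB-453 cells were grown for 5 days in 100 nM 25(OH)D or 0.1% alcohol, with 3 libraries per group assigned from the sample labels. Libraries were made with a stranded mRNA kit and sequenced in pairs. The authors deposited counts, which are unnormalized whole numbers of reads per gene, and RPKM values, which equal the count divided by exon length and library total (largest relative difference 5.14e-15). The submitters' processing notes name Trimmomatic 0.36, featureCounts of Subread 1.5.1, edgeR 3.12.1 and GRCh38. The aligner, the annotation release and the strand setting of the counting are not given in the sources used here. Whether both reads of a pair were counted is not given either. Many small counts were even, such as those of SNAI2 in control (6, 4 and 4). If both reads were counted, small counts stand for fewer read pairs.

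Testing used edgeR 4.0.16 under R 4.3.3 (TMM, its low-count filter with a minimum count of 10, the quasi-likelihood test without covariates, Benjamini-Hochberg adjustment over 18183 genes). Standard errors are the absolute log2 fold change divided by the root of the test statistic F, and 95% intervals take them as normal. Replicates had a biological coefficient of variation of 0.0788. In a simulated comparison the test recovered 193 of 200 genes changed 2-fold among 17910 and called 15 unchanged genes. The counts were drawn independently with the dispersions of this fit, and the changed genes only from genes with many counts. The recovery thus does not cover genes with few counts, such as PKP1, PKP2 and DSC3, or counts that include both reads of a pair. Totals were between 33268860 and 40928176 counts, and counts under about 10 per library allow only wide errors. Two-sided exact permutation tests served for ratios. Other normalizations and filters, DESeq2 1.42.0, limma 3.58.1 on log2(RPKM + 1) or log2(RPKM + 0.1), the replicate number as a block, and each library left out were tried as alternatives.

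All 10 members are named, and in each list up to 2 genes per direction with the smallest p plus every other desmosomal gene. KRT8, KRT18, KRT81, TP63, ZEB1, ZEB2, SNAI1, SNAI2, XBP1 and genes named only as called or not called were added after their values were seen, as were the values without PKP1 and PKP2 and the luminal sum without XBP1. The members, lists and ratios were chosen with earlier results of these data known. A further gene is not reported here and was left out of the counts over its list. AFDN is listed under its older symbol MLLT4. Promoter sequences are those of RefSeq on GRCh38.p14. Other steps used Python 3.11.15, numpy 2.4.6, pandas 2.3.3, scipy 1.17.1 and matplotlib 3.10.9.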

Additional observations from a re-analysis of the deposited data

How the results depend on the processing

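Over 15 alternatives, the count of desmosome genes called higher was 1 throughout and the count called lower was 5, or 4 with a filter of at least 1 CPM in 3 libraries, in limma on log2(RPKM + 1) and without the first control library, the settings in which PKP1 was not tested or not called. The number past an absolute log2 fold change of 1 was 2, and it was 1 with the filter of 1 CPM, 0 in limma on log2(RPKM + 1) 1 in limma on log2(RPKM + 0.1) and 3 without the second 25(OH)D library, where PKP2 was at -1.31 on the log2 scale. Of 537 fold changes of 36 named genes under alternatives, 525 kept their direction and their side of the threshold, 2 (both PKP1) were no longer called, 1 (PERP) became called, and 9 changed sign, 2 of them of CDSN, which was between -0.18 and 0.037 with a library left out (0.037 without the third control library and 0.0079 without the third 25(OH)D library). The other 7 were of LAMB3, which was near 0 throughout: -0.041 with upper-quartile factors, -0.043 with library sizes alone, -0.011 with the replicate block, -0.021 and -0.049 in limma on log2(RPKM + 1) and log2(RPKM + 0.1), and between -0.14 and 0.13 with a library left out. Same-numbered libraries of the groups did not deviate together (correlations between -0.0721 and -0.012), and no library correlated best with its own number. With 3 libraries per group, this cannot show whether same-numbered libraries shared a culture or a preparation. With the replicate block, 1 desmosome gene was higher and 5 were lower, with DSP at -1.38, JUP at -0.21 (edgeR adjusted p = 0.0164) and PPL at 0.65 on the log2 scale, and the number of all genes called was 3057 higher and 2896 lower against 3138 and 3004 without it. Depth limits DSC3, PKP1 and PKP2, which had at most 56 counts in any library.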

Other observations

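The nearest tested genes on either side of the members were 16 genes that are not members themselves, and 1 of them was higher and 4 were lower in the 25(OH)D group (edgeR adjusted p under 0.05). Over all tested genes, 17.3% were higher and 16.5% were lower. These neighbours were looked up after the values of the members were seen. The higher one was IGFN1, which encodes an immunoglobulin-like and fibronectin type III domain protein and lies 54500 bases from PKP1. It went from 0.631 ± 0.220 CPM in control to 23.5 ± 4.15 CPM with 25(OH)D (SD, n = 3, log2 fold change 5.20, edgeR adjusted p = 5.22e-11), while PKP1 fell from 0.787 ± 0.489 CPM to 0.118 ± 0.102 CPM. B4GALNT4, 10498 bases from PKP3, fell by 0.93 on the log2 scale (edgeR adjusted p = 2.41e-05), and RIOK1 and SNRNP48 on either side of DSP fell by 0.34 and 0.15 (edgeR adjusted p = 1.13e-04 and 0.0469). The remaining lower gene was CDH2, which is also counted in the adherens junction list. It lies 2881394 bases from DSC2 and 2812562 bases from DSC3, far from both. UBN1, 147 bases from PPL, was at 267 ± 5.55 CPM and 272 ± 7.47 CPM and did not pass the test (log2 fold change 0.028, edgeR adjusted p = 0.618).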
